A study of Homo sapiens with 12 samples.

Results

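Serine and folate one-carbon genes are described here as 9 members, PHGDH, PSAT1, PSPH, SHMT1, SHMT2, MTHFD1, MTHFD1L, MTHFD2 and ALDH1L2, of 24359 gene symbols in the deposited RNA-seq tables. They were taken by name from the PC-3M table, and where a member had more than 1 transcript row, the row of highest mean over the 6 libraries was used. The groups were PC-3M cells with KMT9a siRNA and PC-3M cells with control siRNA, both at passage 11, and MCF10A cells with KMT9a siRNA and MCF10A cells with control siRNA, both at passage 13, with 3 libraries labelled as biological replicates in each group and 12 in all. PC-3M cells come from the prostate cancer line PC-3 and were selected for metastasis, while MCF10A cells are breast epithelial cells that are immortal but not transformed. KMT9a is the product of N6AMT1, the catalytic subunit of a histone H4 lysine methyltransferase that works as a dimer with TRMT112. The series title names control of metabolism and proliferation in castration-resistant prostate cancer cells as the question. Whether the replicates are separate cultures is not in the labels, so p-values measure only the spread between these libraries, which may be technical. Each comparison was within 1 cell line, and the time after transfection is not given in the sources used here.

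Cells make serine from the glycolytic intermediate 3-phosphoglycerate in a chain of steps run by PHGDH, PSAT1 and PSPH. The hydroxymethyltransferases SHMT1, in the cytosol, and SHMT2, in mitochondria, then split serine into glycine and a carbon unit carried by tetrahydrofolate. Mitochondrial MTHFD2 and MTHFD1L oxidise that unit and release it as formate, and MTHFD1 takes formate up in the cytosol for purine and thymidylate synthesis. Mitochondrial ALDH1L2 oxidises the folate-bound unit, rather than free formate, to carbon dioxide. Proliferating tumour cells often rely on the mitochondrial branch, and the transcription factor ATF4 is a known activator of PHGDH, PSAT1, SHMT2 and MTHFD2.

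Read ends in genes numbered 40236218 to 53401602 per PC-3M library and 181064 to 255642 per MCF10A library. Levels are given as CPM, counts per megaread of read ends, scaled with the TMM method, which sets library scale from the middle of the genes. In PC-3M the targeted N6AMT1 averaged 2.81 ± 0.213 CPM with KMT9a siRNA and 11.5 ± 0.529 CPM with control siRNA (SD, n = 3 each), and the groups did not overlap. Its partner TRMT112 averaged 108.2 ± 5.68 CPM with KMT9a siRNA and 153.7 ± 4.47 CPM with control siRNA (SD, n = 3 each), a log2 fold change of -0.51. The epithelial keratin genes KRT8, KRT18 and KRT19 with EPCAM and CDH1 summed to 1690.0 to 1920.0 CPM of all read ends with KMT9a siRNA and 1090.0 to 1120.0 CPM with control siRNA, with 3 of the 5 genes higher and 2 lower. Of the markers of other cell types, the leukocyte list summed to 49.9 to 62.1 CPM with KMT9a siRNA and 47.1 to 52.5 CPM with control siRNA, nearly all from CD68. The fibroblast list summed to 29.4 to 37.4 CPM with KMT9a siRNA and 52.9 to 54.8 CPM with control siRNA, mostly COL1A1, with DCN at 0 in all 6. The endothelial list summed to 9.79 to 10.7 CPM with KMT9a siRNA and 43.2 to 51.1 CPM with control siRNA, mostly KDR, with VWF at 0 in all 6. Of its 3 tested genes, 1 was lower, KDR (log2 fold change -2.43). The other 2 were higher, PECAM1 (2.49) and TEK (2.29), both at low levels. The breast basal list summed to 14.1 to 17.9 CPM with KMT9a siRNA and 5.9 to 6.49 CPM with control siRNA, mostly LAMB3, and none of its 5 genes was at 0 in all 6. Its 3 tested genes, LAMB3, TP63 and KRT6A, were higher. KRT5 and KRT14 were too low to be tested. KRT5 went the other way, with 1, 2 and 1 read ends with KMT9a siRNA, against 12, 7 and 13 with control siRNA. The summed levels did not overlap between the groups for the epithelial, fibroblast, endothelial and basal lists and overlapped for the leukocyte list. Such separation was common: in 38.3% of tested genes every KMT9a siRNA library lay below every control library. The share that separated in the other direction was not counted. The part of the marker genes in the results was not tested. KMT9a siRNA replicate 2 stood apart from the other knockdown libraries, with a chi-square over degrees of freedom of 11.1 and 13.4 against them and 2.37 between those. The chi-square values here take read ends divided by 2 as the counts.

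Of the 9 members, 8 fell with KMT9a siRNA in PC-3M and 0 rose (limma with a mean-variance trend, adjusted p under 0.05 over all 14958 tested genes). The background is large: 74.5% of all tested genes passed in either direction and 37.2% passed as lower. All 9 members passed the filter on low values, and in all 9 every knockdown library lay below every control library, which held for 38.3% of tested genes. The median log2 fold change of the members was -0.86, against 0.0029 over all tested genes. The changes were uneven, from 5.52-fold lower for PHGDH to 1.33-fold lower for MTHFD2. A fall of at least 2-fold was reached by PHGDH, PSAT1 and MTHFD1, which is 3 of 9, against 11.8% of tested genes that passed as lower by that much. Scaling by library totals alone moved the median of all genes to -0.17 on the log2 scale and the calls over all genes to 4384 higher and 6821 lower, against 5580 higher and 5561 lower with TMM. All 9 members stayed lower under either scaling. With library totals alone, PSPH (-1.07) and SHMT2 (-1.04) also reached a 2-fold fall, and the share of all genes that did so was not counted. The fold changes below use the TMM scale. In bulk RNA, less RNA per cell and fewer cells that express a gene cannot be told apart.

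**Figure D1:**
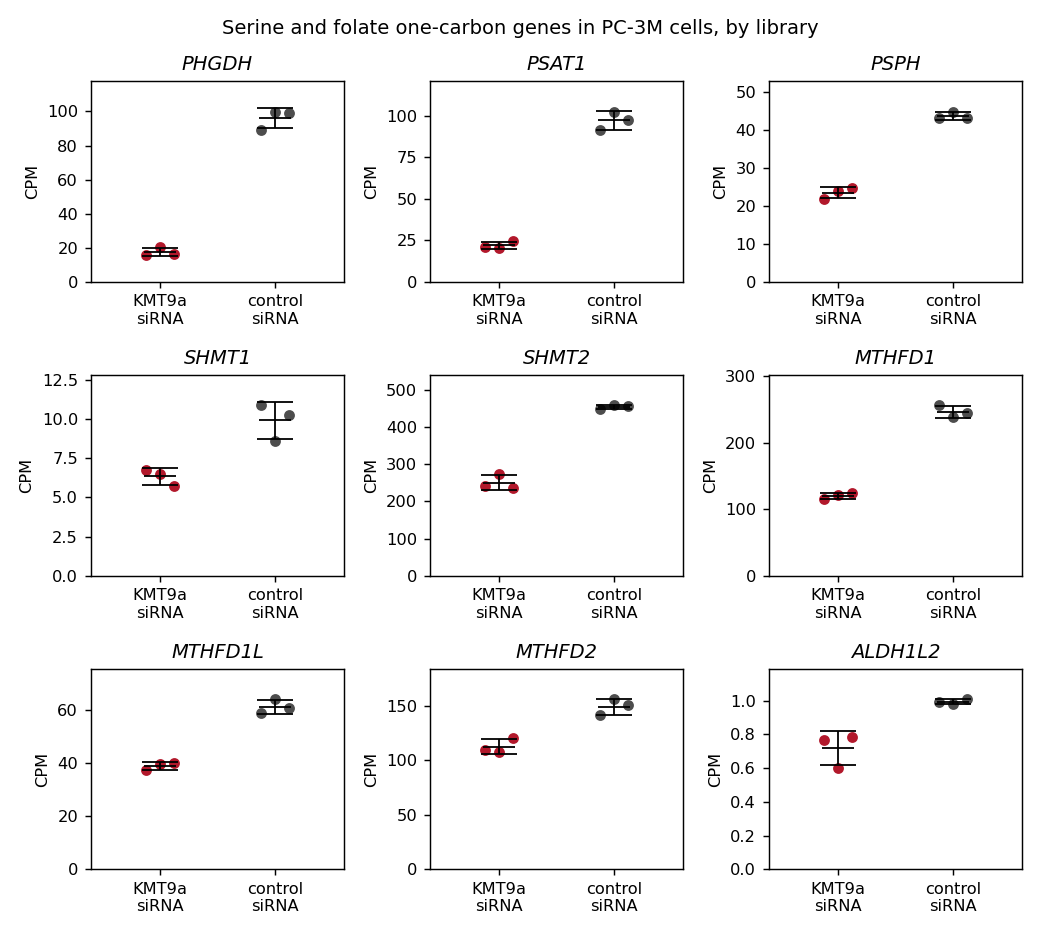
TMM-scaled level in CPM (y axis, from 0) of each of the 9 members in PC-3M libraries with KMT9a siRNA (red, left) and control siRNA (grey, right); points are libraries, and bars are the mean ± SD of 3 libraries. In each panel all 3 knockdown points lie below all 3 control points, and in proportion to the control level the gap is widest for PHGDH and PSAT1.

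The deepest falls among the members were in the serine synthesis genes PHGDH and PSAT1, while PSPH fell less than MTHFD1. PHGDH encodes phosphoglycerate dehydrogenase, the first and committed enzyme of the pathway, and lies on hg19 chromosome 1 at 120254419 to 120286849 on the plus strand. It had 15.7, 20.4 and 16.3 CPM with KMT9a siRNA, against 89.4, 99.9 and 99.3 CPM with control siRNA. The highest knockdown library, replicate 2, was far under the lowest control library. On the log2 scale the change was -2.47 with an SE of 0.0918 (limma adjusted p = 1.549e-10), which leaves 18.1% of the control level. Of all tested genes, 1.46% had a lower log2 fold change than PHGDH. The authors' deposited table gives it a log2 fold change of -2.48.

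PSAT1, the aminotransferase of the second step, lies on chromosome 9 at 80912059 to 80945009 on the plus strand. It had 21.1, 20.5 and 24.6 CPM with KMT9a siRNA, against 91.6, 102.6 and 97.5 CPM with control siRNA. The groups were again well apart, at a log2 fold change of -2.14 (limma SE 0.0766, adjusted p = 1.093e-10). PSPH, the phosphatase that releases free serine, lies on chromosome 7 at 56078744 to 56119268 on the minus strand. It had 21.8, 23.9 and 24.8 CPM with KMT9a siRNA, against 43.1, 44.8 and 43.2 CPM with control siRNA. The last step thus fell less than the steps before it, with a log2 fold change of -0.89 (limma SE 0.0676, adjusted p = 9.322e-08). The 95% interval of PSPH, -1.04 to -0.75, did not meet those of PSAT1, -2.31 to -1.98, or PHGDH, -2.67 to -2.27.

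The uneven fall shifted the order of the steps. Per kb of transcript, PHGDH stood at 8.77 ± 1.26, PSAT1 at 10.1 ± 1.01 and PSPH at 11.2 ± 0.732 CPM per kb with KMT9a siRNA. With control siRNA the levels were 48.3 ± 2.96 for PHGDH, 44.8 ± 2.54 for PSAT1 and 20.8 ± 0.463 CPM per kb for PSPH (SD, n = 3 throughout). The log2 ratio of PSPH to PHGDH per length was 0.39, 0.15 and 0.53 in the knockdown libraries, against -1.13, -1.23 and -1.28 in the control libraries. PSPH was thus above PHGDH in every knockdown library and below it in every control library. The log2 ratio of PSAT1 to PHGDH was 0.22 ± 0.298 with KMT9a siRNA and -0.11 ± 0.0364 with control siRNA (SD, n = 3 each), and the groups overlapped.

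The hydroxymethyltransferase genes differ widely in level. SHMT2, the mitochondrial enzyme, lies on chromosome 12 at 57623356 to 57628718 on the plus strand and was the most abundant member per length. It had 241.3, 274.0 and 235.4 CPM with KMT9a siRNA, against 447.8, 458.5 and 456.6 CPM with control siRNA. Knockdown replicate 2 was the highest of its group and still well under the controls, and the log2 fold change was -0.86 (limma SE 0.0578, adjusted p = 2.956e-08). SHMT1, the cytosolic enzyme, lies on chromosome 17 at 18231187 to 18266856 on the minus strand. It had 6.79, 6.53 and 5.73 CPM with KMT9a siRNA, against 10.9, 8.64 and 10.3 CPM with control siRNA. The gap between its groups was narrower, with a log2 fold change of -0.64 (limma SE 0.113, adjusted p = 0.0002232). The 3′ end of SHMT1 overlaps 184 bases of SMCR8 on the other strand. SMCR8 was at 80.9 ± 3.91 CPM with KMT9a siRNA and 72.0 ± 1.48 CPM with control siRNA (SD, n = 3 each), and without strand information reads of that stretch cannot be assigned to either gene. The log2 ratio of SHMT2 to SHMT1 per length was 5.44 ± 0.130 with KMT9a siRNA and 5.66 ± 0.189 with control siRNA (SD, n = 3 each), with overlap of the groups.

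Of the folate interconversion genes, MTHFD1, MTHFD1L and MTHFD2 fell and ALDH1L2 did not pass. MTHFD1, the cytosolic trifunctional enzyme, lies on chromosome 14 at 64854759 to 64926725 on the plus strand. It had 115.0, 121.1 and 123.8 CPM with KMT9a siRNA, against 256.2, 238.1 and 244.7 CPM with control siRNA. This was the largest change outside serine synthesis, to 48.7% of control, at a log2 fold change of -1.04 (limma SE 0.0512, adjusted p = 1.764e-09). MTHFD1L, the mitochondrial synthetase that releases formate, lies on chromosome 6 at 151186815 to 151423023 on the plus strand. It had 37.3, 39.7 and 40.0 CPM with KMT9a siRNA, against 58.8, 63.9 and 60.6 CPM with control siRNA. The groups were apart, with a log2 fold change of -0.65 (limma SE 0.0602, adjusted p = 6.791e-07).

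MTHFD2, the mitochondrial dehydrogenase and cyclohydrolase often raised in tumours, lies on chromosome 2 at 74425690 to 74442424 on the plus strand. It had 109.2, 108.0 and 120.6 CPM with KMT9a siRNA, against 141.4, 156.1 and 150.6 CPM with control siRNA. Of the members that passed it had the smallest fall, a log2 fold change of -0.41 (limma SE 0.0595, adjusted p = 4.25e-05). ALDH1L2 lies on chromosome 12 at 105413562 to 105478341 on the minus strand and was barely expressed. It had 31, 27 and 30 read ends with KMT9a siRNA, against 56, 53 and 57 read ends with control siRNA, or 0.718 ± 0.101 CPM and 0.993 ± 0.0141 CPM (SD, n = 3 each). Its groups did not overlap, but it missed the threshold (log2 fold change -0.46, SE 0.215, limma adjusted p = 0.07298, 95% interval -0.92 to 0.013). Scaled by library totals it passed, at -0.62 (limma adjusted p = 0.02086), and over all alternatives its adjusted p ranged between 0.02086 and 0.2306.

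**Figure D2:**
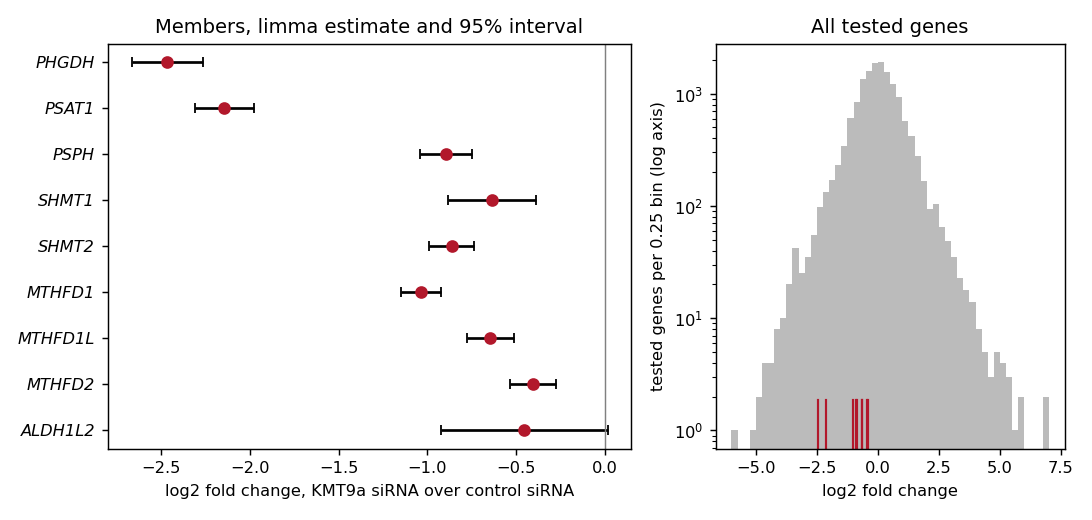
Left, log2 fold change (x axis) of KMT9a siRNA over control siRNA in PC-3M for each member, with its 95% interval from limma; right, the number of tested genes per bin of log2 fold change on a log axis, with the 9 members as red marks. PHGDH at -2.47 and PSAT1 at -2.14 stand away from the other members, and the interval of ALDH1L2 reaches past 0.

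MTHFD1 fell further than its mitochondrial relatives, so the ratios between them differed between the groups. The log2 ratio of MTHFD2 to MTHFD1 per length was 0.51, 0.42 and 0.54 with KMT9a siRNA, against -0.28, -0.03 and -0.12 with control siRNA. The log2 ratio of MTHFD1L to MTHFD1 was -1.63 ± 0.0105 with KMT9a siRNA and -2.03 ± 0.113 with control siRNA (SD, n = 3 each). Neither ratio overlapped between the groups. How often ratios of other gene pairs separate the groups was not counted. Ordered by level per length, the knockdown libraries ran SHMT2, MTHFD2, MTHFD1, MTHFD1L, PSPH, PSAT1, PHGDH, SHMT1 and ALDH1L2. The controls ran SHMT2, MTHFD1, MTHFD2, PHGDH, PSAT1, PSPH, MTHFD1L, SHMT1 and ALDH1L2. In the knockdown libraries the neighbours from MTHFD1L to PHGDH, at 11.4, 11.2, 10.1 and 8.77 CPM per kb, each differed from the next by less than the sum of their SDs. In the controls this held for PHGDH and PSAT1.

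Summed per length, the 9 members reached 239.3 ± 9.66 CPM per kb with KMT9a siRNA and 474.2 ± 9.08 CPM per kb with control siRNA (SD, n = 3 each). The serine synthesis genes made up 12.6% ± 0.491 of that sum with KMT9a siRNA and 24.0% ± 0.754 with control siRNA. The 4 mitochondrial folate genes made up 71.6% ± 0.829 with KMT9a siRNA and 59.8% ± 0.227 with control siRNA. The share of the cytosolic folate genes, 15.9% ± 0.446 with KMT9a siRNA and 16.2% ± 0.974 with control siRNA, differed by less than the SD. The larger mitochondrial share came with a lower sum, of 171.3 ± 7.64 CPM per kb with KMT9a siRNA and 283.8 ± 6.47 CPM per kb with control siRNA. These sums are a description and carry no test.

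**Figure D3:**
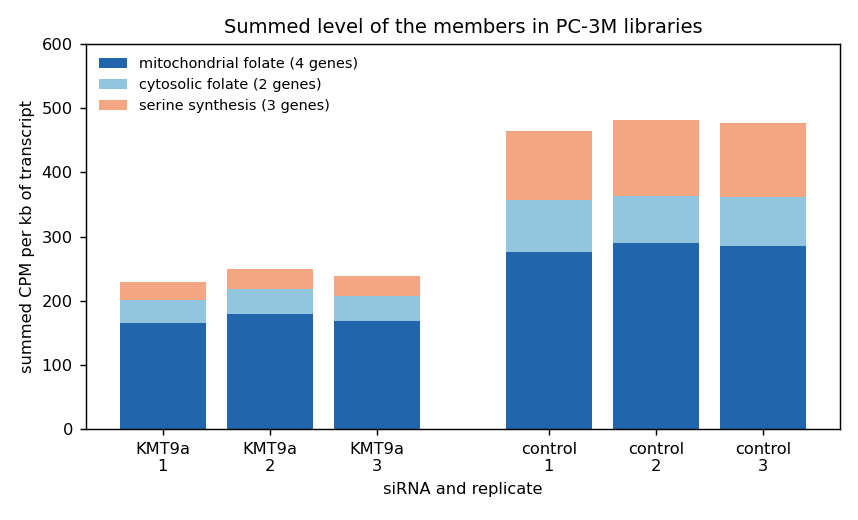
Summed level of the members in CPM per kb of transcript (y axis, from 0) in each PC-3M library, with KMT9a siRNA on the left and control siRNA on the right, stacked by mitochondrial folate, cytosolic folate and serine synthesis genes. The knockdown stacks reach 230.0 to 249.3 CPM per kb and the control stacks 464.2 to 481.8, and the serine synthesis block shrinks most in proportion, to 30.1 CPM per kb in knockdown libraries, against 113.9 in control libraries.

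The table lists 23 transcript rows for the members, and reads in shared exons are present in several rows. For the 6 members with more than 1 row, the log2 ratio of mean deposited values, knockdown over control and before TMM, barely varied between rows, for example -1.08 to -1.07 over the 8 rows of SHMT2 and -2.36 to -2.35 over the 2 of PSAT1. MTHFD1L was the exception in range, with -1.04 in its short row of 1050 bases, which ends at 151220136, and -0.85 to -0.84 in the 3 rows that run to 151423023. The short row had 459, 454 and 447 read ends with KMT9a siRNA, against 1107, 1096 and 1084 with control siRNA. All 23 rows were lower on this scale.

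For 6 of the 9 members RefSeq promoters on GRCh38.p14 were used, from 250 bases before to 50 after the gene start; PSPH, SHMT2 and ALDH1L2 were not matched. These windows are on another build than the hg19 tables and are shown only for their letters. Both strands were searched for a C/EBP-ATF response element (TGATGNAA, a form bound by ATF4), an E-box (CACGTG, bound by MYC and MAX), the core of an antioxidant response element (TGACNNNGC, bound by NRF2) and a CCAAT box (CCAAT, bound by NF-Y). The motifs do not overlap each other in the windows shown. The C/EBP-ATF letters were in 1 of the 6, that of MTHFD1L, against 3.62% of 35116 promoters. E-box letters were in MTHFD1 and MTHFD1L, 2 of 6, against 7.26%, and antioxidant core letters in MTHFD2 alone, 1 of 6, against 13.3%. CCAAT letters were in all 6, against 34.6% of all promoters. A match is a description of letters and not a bound site. PHGDH and PSAT1, the members with the deepest falls, and MTHFD1L, with the C/EBP-ATF letters, are shown 5′ to 3′ with matched motifs in capitals. PHGDH is on the plus strand at chr1:119711684-119711983, PSAT1 on the plus strand at chr9:78296875-78297174 and MTHFD1L on the plus strand at chr6:150866236-150866535.
PHGDH: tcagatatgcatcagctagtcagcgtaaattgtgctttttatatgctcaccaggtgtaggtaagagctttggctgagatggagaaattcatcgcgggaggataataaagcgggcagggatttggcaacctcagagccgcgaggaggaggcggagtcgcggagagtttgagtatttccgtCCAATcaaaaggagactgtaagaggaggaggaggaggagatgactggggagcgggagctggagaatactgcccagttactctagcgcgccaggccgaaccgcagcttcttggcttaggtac
PSAT1: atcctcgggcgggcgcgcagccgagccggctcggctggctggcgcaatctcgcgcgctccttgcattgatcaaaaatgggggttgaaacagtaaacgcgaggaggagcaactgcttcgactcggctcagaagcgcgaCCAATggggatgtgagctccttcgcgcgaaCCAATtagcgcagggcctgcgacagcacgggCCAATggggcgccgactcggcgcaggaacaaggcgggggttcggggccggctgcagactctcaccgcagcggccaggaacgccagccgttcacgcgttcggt
MTHFD1L: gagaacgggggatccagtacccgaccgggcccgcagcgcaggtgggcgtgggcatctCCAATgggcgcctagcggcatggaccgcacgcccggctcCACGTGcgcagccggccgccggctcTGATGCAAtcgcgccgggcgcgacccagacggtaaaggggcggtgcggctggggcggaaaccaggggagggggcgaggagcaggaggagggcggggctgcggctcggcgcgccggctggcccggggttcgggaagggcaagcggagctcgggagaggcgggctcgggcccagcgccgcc
Relative to the gene start, the capitals mark 1 CCAAT in PHGDH, at -71, and 3 in PSAT1, at -113, -83 and -52. In MTHFD1L they mark CCAAT at -193, CACGTG at -154 and TGATGCAA at -129. The windows of PHGDH and PSAT1 thus hold CCAAT letters only, and no C/EBP-ATF, E-box or antioxidant letters within these 300 bases. The log2 fold changes of these genes were -2.47 for PHGDH, -2.14 for PSAT1 and -0.65 for MTHFD1L. A link between the letters and the fold changes was not tested.

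The other genes of serine, glycine and folate metabolism were split. Of 33 listed, 29 passed the filter. Of these, 14 fell, 9 rose and 6 did not pass, with a median log2 fold change of -0.18. Over all tested genes 37.2% passed as lower and 37.3% as higher, so many calls in both directions are common outside the pathway too. Scaled by library totals, 15 were lower and 6 higher, against 6821 lower and 4384 higher of all 14958 tested genes. The split was 4 lower and 3 higher of 8 tested folate enzymes, 3 and 1 of 5 users of carbon units, 2 and 2 of 4 glycine cleavage genes, 1 and 1 of 3 folate transporters, and 4 and 2 of 9 genes of serine transport and use.

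Of the serine carriers listed, SLC1A4, SLC1A5, SFXN1 and SFXN3 fell, and SFXN2 did not pass. SLC1A4, a plasma membrane carrier of serine and other neutral amino acids, was at 4.87 ± 0.427 CPM with KMT9a siRNA and 20.7 ± 0.799 CPM with control siRNA (log2 fold change -2.08, limma adjusted p = 7.38e-10). SLC1A5, the related carrier best known for glutamine, was at 70.7 ± 6.53 CPM with KMT9a siRNA and 186.6 ± 4.12 CPM with control siRNA (-1.40, limma adjusted p = 9.67e-10). SFXN1, which carries serine into mitochondria, was at 18.2 ± 2.01 CPM with KMT9a siRNA and 32.7 ± 1.93 CPM with control siRNA (-0.85), and its relative SFXN3 at 20.9 ± 2.17 CPM with KMT9a siRNA and 48.8 ± 0.643 CPM with control siRNA (-1.23; SD, n = 3 throughout). The sphingolipid synthesis gene SPTLC1, whose enzyme uses serine, went the other way, by 0.46. SPTLC2, of the same enzyme, rose by 0.24 but did not pass with library totals alone (0.07, limma adjusted p = 0.309).

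The mitochondrial MTHFD2L, a relative of MTHFD2 with the same activities, rose while MTHFD2 fell. MTHFD2L had 12.1, 13.7 and 14.4 CPM with KMT9a siRNA, against 7.96, 9.19 and 8.65 CPM with control siRNA (log2 fold change 0.64, SE 0.0971, limma adjusted p = 6.15e-05). The log2 ratio of MTHFD2 to MTHFD2L per length was 3.22, 3.02 and 3.11 with KMT9a siRNA, against 4.20, 4.13 and 4.17 with control siRNA, so that MTHFD2 remained the more abundant in every library. FPGS, which traps folates in cells by adding glutamates, rose by 0.83 and MTHFS by 0.40 on the log2 scale. MTHFS did not pass with library totals alone (0.23, limma adjusted p = 0.0651). GGH, which removes those glutamates, fell by 0.76.

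Among users of carbon units, the thymidylate synthase gene TYMS had 12.9, 11.1 and 14.4 CPM with KMT9a siRNA, against 49.5, 49.0 and 52.1 CPM with control siRNA. Its log2 fold change of -1.97 (limma adjusted p = 8.13e-10) was near that of PSAT1. The purine synthesis genes ATIC (-0.60) and GART (-0.27) fell less, the methionine synthase gene MTR rose by 0.43, and MTFMT, which formylates the initiator tRNA of mitochondria, had 7.88 ± 0.105 CPM with KMT9a siRNA and 7.84 ± 0.185 CPM with control siRNA (SD, n = 3 each) and changed sign with library totals alone. The glycine cleavage genes were divided. GLDC, the decarboxylase, rose by 1.14 and AMT, the aminomethyltransferase, by 1.496 on the log2 scale, the second to 1.80 ± 0.121 CPM with KMT9a siRNA, against 0.610 ± 0.0266 CPM with control siRNA (SD, n = 3 each), while GCSH, the carrier protein, whose value is uncertain since near-identical copies in the genome can share its reads, fell by 0.87 and DLD, a dehydrogenase shared with other mitochondrial complexes, to a log2 fold change of -1.29. Of the folate transporters, SLC19A1, the reduced folate carrier, fell by 0.57. The mitochondrial folate carrier SLC25A32 rose by 0.19 and did not pass with library totals alone (0.02, limma adjusted p = 0.769).

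**Figure D4:**
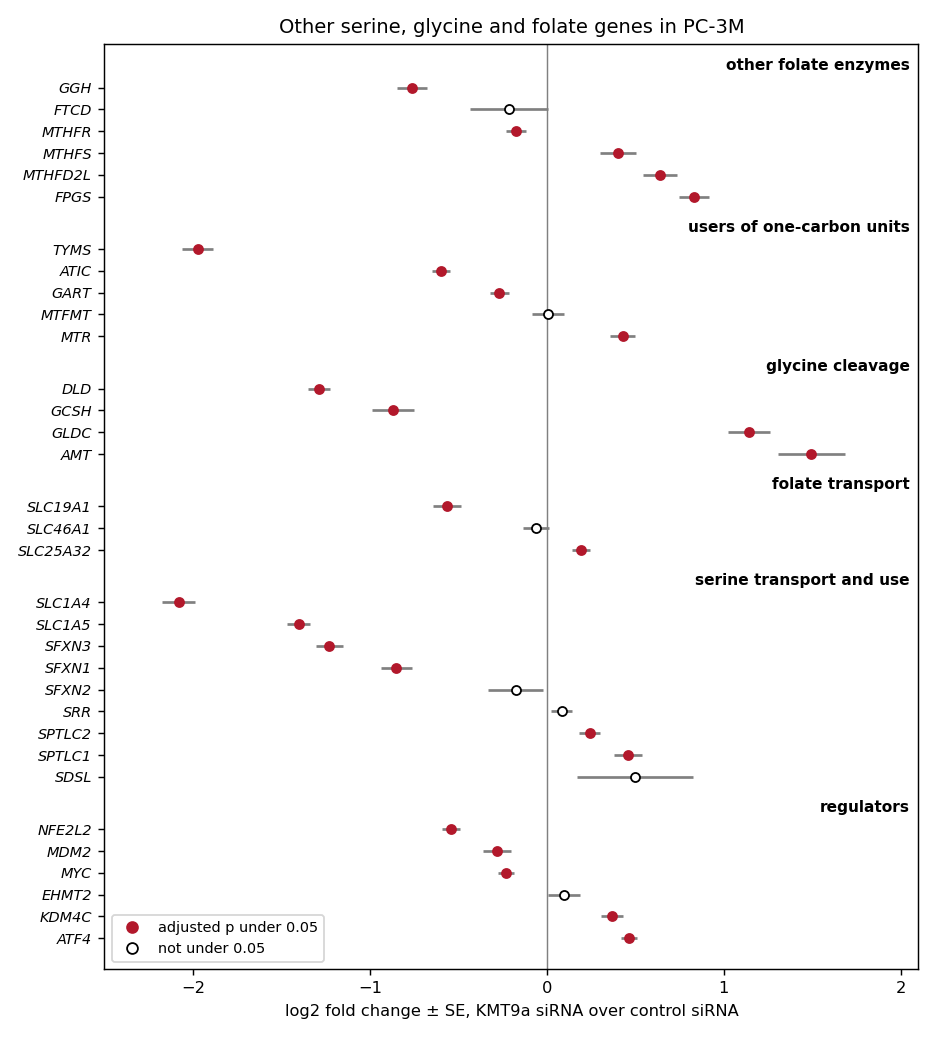
Log2 fold change (x axis) ± SE of KMT9a siRNA over control siRNA in PC-3M for tested genes of 6 lists (2 folate enzymes are not drawn), with filled red points at a limma adjusted p under 0.05 and open points otherwise. TYMS at -1.97 and SLC1A4 at -2.08 lie farthest to the left, and AMT at 1.496 and GLDC at 1.14 farthest to the right.

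Of 6 genes known to regulate the serine pathway, 3 fell, 2 rose and 1 did not pass. Among all tested genes, 37.2% passed as lower and 37.3% as higher. ATF4 was at 530.8 ± 7.60 CPM with KMT9a siRNA and 384.9 ± 16.6 CPM with control siRNA (log2 fold change 0.46, SE 0.0470, limma adjusted p = 1.48e-06), so that its messenger RNA rose while PHGDH, PSAT1, SHMT2 and MTHFD2 fell. NFE2L2, which encodes NRF2, was at 77.4 ± 3.00 CPM with KMT9a siRNA and 112.6 ± 3.24 CPM with control siRNA (-0.54). MYC was at 1580 ± 63.1 CPM with KMT9a siRNA and 1850 ± 23.0 CPM with control siRNA (-0.23; SD, n = 3 throughout). The demethylase gene KDM4C rose by 0.37, MDM2 fell by 0.28, and EHMT2 had 50.5 ± 7.50 CPM with KMT9a siRNA and 46.9 ± 1.496 CPM with control siRNA without passing (limma adjusted p = 0.341), a difference whose sign turned with library totals alone and without KMT9a siRNA replicate 2. ATF4 is controlled largely at translation, which these libraries do not measure.

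Profiles over the 6 PC-3M libraries were compared by the root mean square distance of log2 values from each gene's own control mean. The candidates were 10376 genes whose mean reached 5 CPM. Members were left out, as were LOC, LINC, MIR, SNOR and orf symbols and rows named only by a RefSeq number. Nearest to PHGDH were the glutathione-degrading CHAC1 (distance 0.0808), the receptor gene KDR (0.115) and DPH6 (0.122), with log2 fold changes of -2.40, -2.43 and -2.38. CHAC1 had 8.05 CPM with KMT9a siRNA and 42.7 CPM with control siRNA. Nearest to SHMT2 were the respiratory cytochrome gene CYC1 (0.0298), RNF26 (0.0313) and ACOX3 (0.0318). CYC1 was also like SHMT2 in CPM, at 248.6 with KMT9a siRNA and 456.6 with control siRNA. Nearest to MTHFD2 were NUFIP1 (0.0263), CALCOCO2 (0.0278) and the cystathionine lyase gene CTH (0.0305). With 2 groups the distance rests mainly on the size of the change between them.

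In MCF10A none of the 9 members passed the filter, so the main test did not cover them and no difference between the lines was tested. Of all 1049 genes tested in that line 0.477% passed (limma), 1 as higher (0.0953%) and 4 as lower, each of the 4 by at least 2-fold (0.381%). KMT9a siRNA replicate 2 stood apart from the other MCF10A knockdown libraries, with a chi-square over degrees of freedom of 14.6 and 21.1 against them and 2.51 between those. Control replicates 1 and 2 were close, with a chi-square over degrees of freedom of 0.799 on read ends divided by 2. Only 52.6% and 51.9% of their values above 0 were even, so not all read ends came in pairs. Whether these libraries differ by less than the sampling noise is thus not settled. Counted as 1 sample by their mean they left 0 higher and 0 lower calls in limma, with 75 genes at an unadjusted p under 0.05. DESeq2 on all 6 libraries called 26 higher and 25 lower. The 9 members together had 4, 2 and 2 read ends with KMT9a siRNA, against 0, 0 and 5 read ends with control siRNA. At the share of reads they had in the PC-3M controls, 223 to 314 read ends would have been found per MCF10A library. SHMT2 alone would have had 87.3 to 123 and had 0 in the 3 knockdown libraries, against 0, 0 and 4 in the controls. PSPH, MTHFD1 and ALDH1L2 were at 0 in all 6. The housekeeping gene GAPDH was low too, with 7, 7 and 13 read ends with KMT9a siRNA, against 13, 0 and 16 with control siRNA, where 782 to 1100 would correspond to the PC-3M share. N6AMT1 was at 0 in all 6 libraries, as were the epithelial gene CDH1 and the basal genes KRT5 and LAMB3, so that neither the knockdown nor the labelled cell type could be checked. The basal list summed to 2, 78 and 4 read ends with KMT9a siRNA, against 0, 3 and 4 with control siRNA. All fibroblast, leukocyte and endothelial markers were at 0. The 2 tables were scaled separately, and no level of a member in MCF10A cells is drawn from these counts.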

How the data were processed

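Total RNA of 12 libraries was sequenced, and the titles gave each library's group and number. STAR, HOMER, edgeR and hg19 are listed, without versions, per the submitters' processing notes. For each cell line the authors deposited 38763 RefSeq transcript rows with 6 columns of a scaled signal, a log2 fold change, and a p-value and adjusted p-value of their own, per the file headers. Strand handling and filters are not given in the sources used here.

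The deposited signal columns of a table sum to nearly the same total and are not raw counts. All values above 0 were whole multiples of a step of their library (100% within a tolerance of 0.1 step), and read ends were recovered on this basis. A total of 1182 rows had no annotation.

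The main test was limma 3.58.1 with a mean-variance trend, in R 4.3.3, on log2 of the TMM-scaled deposited value plus a pseudocount of 1, within each table, which understates changes of low genes. Genes passed the edgeR 4.0.16 filter on recovered reads (minimum count 10, minimum total 15). Adjusted p-values are Benjamini-Hochberg over all tested genes, with a threshold of 0.05. CPM are relative to the total over tested genes; marker sums are relative to all read ends in genes. Alternatives, with DESeq2 1.42.0 among them, are in the closing section; in PC-3M, edgeR on recovered reads gave 5595 higher and 5552 lower calls. Same-numbered replicates were not paired: the correlations of their deviations were -0.0415, -0.0206 and 0.0372 in PC-3M.

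Depth bears on counting error alone: without molecular identifiers, PCR copies count as reads. The members and gene lists were chosen with earlier results of these data known. Named genes are all members, the knockdown targets, up to 4 genes of smallest p from each list, and the 3 nearest profiles of PHGDH, SHMT2 and MTHFD2. MTHFS, SPTLC1, SPTLC2, SFXN2, MTFMT, MDM2 and EHMT2 were named after their values were seen, as were the ratios of MTHFD2 to MTHFD2L, PSAT1 to PHGDH and PSPH to PHGDH. Some listed genes are counted but not reported by name here.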

Additional observations from a re-analysis of the deposited data

How the results depend on the processing

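In PC-3M, 8 members were lower and past the threshold under all 19 alternatives, and ALDH1L2 was lower under the 18 that tested it and past the threshold in 1, scaling by library totals. Leaving out single libraries moved the PC-3M calls between 5240 and 5838 higher and between 5186 and 5976 lower; testing all transcript rows gave 10033 higher and 9795 lower. The samples shared only replicate numbers, with correlations of -0.0711, 0.139 and 0.157 in MCF10A; a replicate block gave 5474 higher and 5469 lower in PC-3M, with 8 members lower, and 0 higher and 0 lower in MCF10A. The 5 MCF10A calls, 1 higher and 4 lower, were not stable: library totals alone gave 0 higher and 1 lower, no filter on low values 18 and 48, DESeq2 26 and 25, limma-voom 3 higher, an adjusted p of 0.01 gave 0 and 0, and the mean of control replicates 1 and 2 as 1 sample, chosen after seeing the data, 0 and 0. Leaving out single MCF10A libraries gave between 0 and 76 higher and between 0 and 94 lower, the highest counts without KMT9a siRNA replicate 2, the library that stood apart from its group; the cause was not tested. No member passed the filter in MCF10A, where each had at most 4 read ends in a library; with no filter 6 were tested and 0 passed in limma.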
